A study of Arabidopsis thaliana with 6 samples.

Results

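The WRKY transcription factors are a plant-specific family of regulators, and 54 Arabidopsis loci of the family are described here. They were taken by locus identifier out of 29030 loci named on the array, and 77 of the array's 43603 probes belong to them. Lasalocid sodium (LS) belongs to the polyether ionophores, which ferry cations through membranes, and the arrays asked how seedling transcripts respond to it in a study of the plant cell wall. Total RNA came from whole wild-type seedlings of the ecotype Col-0. In the LS group, seedlings that were 3 days old were moved to liquid medium with 1 μM LS and kept in the dark for 24 h (n = 3), and the control seedlings were handled alike in medium without LS (n = 3). All 6 samples were therefore etiolated, fed with sucrose and in liquid, and the labels name neither separate cultures nor pooled plants, so the p-values below measure the spread between these samples, which may be technical.

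WRKY proteins bind the W-box, a short promoter element, through a domain that folds around a zinc ion and carries the residues that gave the family its name. The number of these domains and the form of the zinc finger divide the family into groups I, IIa to IIe and III. The groups are described below for the 54 loci, and 18 further WRKY loci on the array are described after them. Many members are switched on within minutes by pathogens, wounding or salicylic acid, several are phosphorylated by mitogen-activated protein kinases (MAPKs), and others act in senescence, phosphate supply, trichomes or secondary walls.

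Each value below is a log2 signal of 1 array relative to the 75th percentile of all spots of that array, so 0 stands for that percentile. Signals of different probes depend on the probe and are not compared as transcript levels. A gene was represented by its brightest tested probe, and a call needed a fold change of 1.5 or more with a limma adjusted p under 0.05. The precision of every value is limited by 3 arrays per group. The arrays had their 75th percentile at signals of 1309 to 2123 in LS and 1067 to 1447 in control, and 72.6% to 77.0% of spots were well above background. LS array 3 stood apart, as its spike-in controls lay 2.06 above the 75th percentile on the log2 scale, against 2.97 and 3.22 on the other LS arrays and 3.09 to 3.66 on the control arrays. LS array 1 was on the slide of the 3 controls, and the other LS arrays were on a separate slide. In whole seedlings fewer cells of a type and less RNA per cell cannot be told apart. Marker genes of epidermis, endodermis, xylem, phloem, guard cells and root hairs were well above background on all 6 arrays, while the 3 pollen markers were not on any array.

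Of the 54 loci, 51 could be tested, and 50 of these were well above background on all 6 arrays. LS-treated seedlings had higher signals of 4 WRKY genes and lower signals of 2, while 45 did not pass the test. No WRKY gene was called without control array 1, without control array 2 or with slide as a block, where the log2 fold changes of the 6 genes kept their sign. The genes called higher were WRKY50, WRKY60, WRKY48 and WRKY53, with fold changes of 2.75, 2.50, 2.25 and 1.82. The genes called lower were WRKY75 and WRKY22, with fold changes of 2.38 and 2.13. Over all 21828 genes tested, 3.18% were called higher and 2.19% were called lower, beside 7.84% and 3.92% of the members, and the difference between these shares was not tested. The median log2 fold change of the 51 was -0.11, against -0.03 over all genes. Their quartiles were -0.34 and 0.39, against -0.30 and 0.25 over all genes. In 12 members all LS arrays lay above all control arrays, and in 12 they lay below, while 17.6% and 17.9% of all genes were separated in these directions. The members had no common direction, with 21 positive and 30 negative changes, and their median turned positive (0.46) when the arrays were scaled on spike-in controls, which moved the median of all probes to 0.53.

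**Figure D1:**
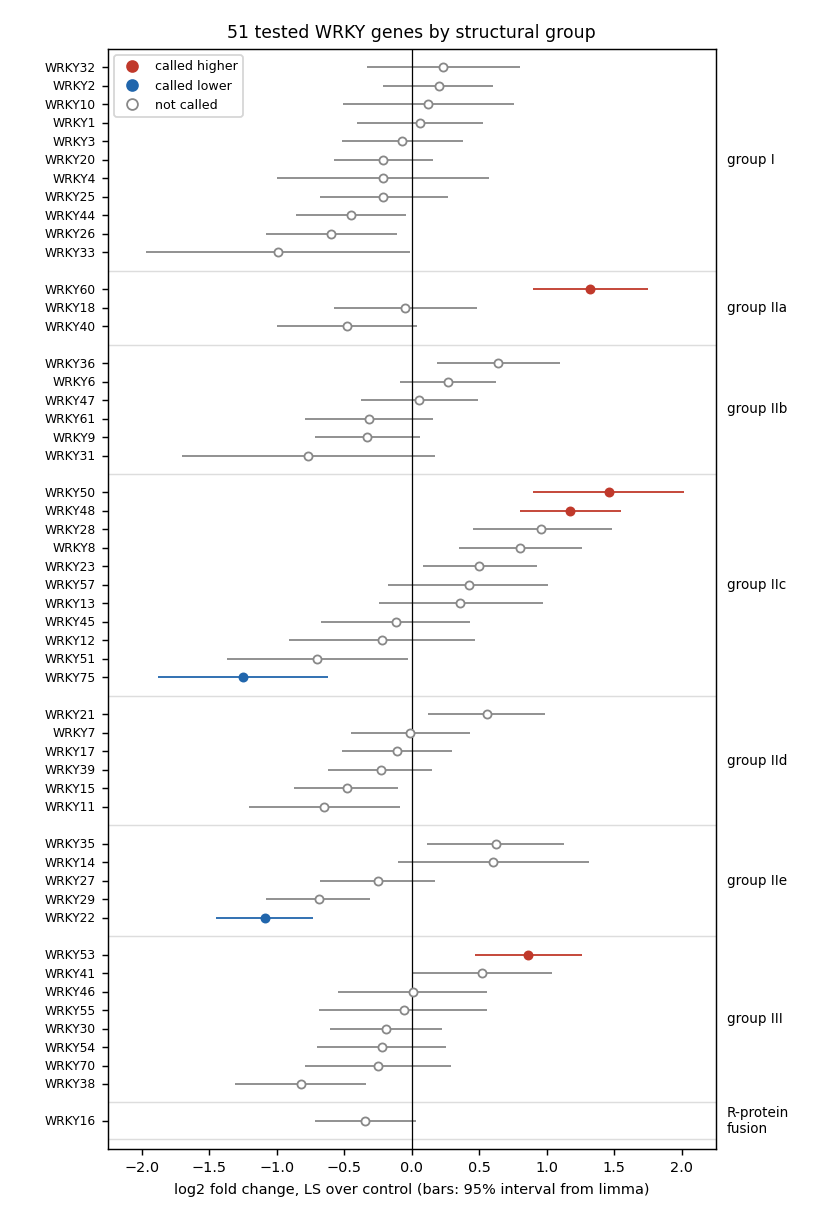
Log2 fold change of LS over control for the 51 tested WRKY genes, ordered by size within each structural group, with 95% intervals from limma as bars. Filled points are the 4 genes called higher and the 2 called lower, and the 45 open points are genes that did not pass the test.

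WRKY60, WRKY18 and WRKY40 make up group IIa, whose proteins form homodimers and heterodimers through a leucine zipper and modulate defence and abscisic acid responses. WRKY60 (AT2G25000) had signals of 0.36, 0.44 and 0.45 on the LS arrays, against -0.78, -0.72 and -1.23 on the control arrays. The groups did not overlap, and the LS arrays lay close together. The log2 fold change was 1.32 ± 0.18 (SE, limma adjusted p = 0.0223). WRKY18 (AT4G31800), which represses basal resistance together with its relatives, gave 1.55, 2.18 and 2.02 in LS and 2.04, 1.66 and 2.20 in control. Its groups overlapped, and its log2 fold change was -0.05 ± 0.23 (SE, limma adjusted p = 0.913). WRKY40 (AT1G80840), an early wound- and elicitor-responsive gene, gave 0.72, 0.79 and 0.78 in LS against 0.79, 1.33 and 1.60 in control. All LS values of WRKY40 were below the control values, though control array 1 came level with them after rounding, and the log2 fold change of -0.48 ± 0.22 (SE) did not pass the test (limma adjusted p = 0.227).

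The change of WRKY60 was set against that of each of these relatives, in pairs that share the WRKY60 values. Both belong to 10 pairs of relatives chosen with these changes known. The log2 fold change of WRKY60 exceeded that of WRKY40 by 1.80 ± 0.37 (SE) and that of WRKY18 by 1.37 ± 0.35 (SE). Both differences had a two-sided exact permutation p of 0.1 (n = 3 each), which is the smallest that 3 arrays against 3 can give, and an adjusted p of 0.167 over the 10 pairs, so that no pair could pass a threshold of 0.05. These differences are taken within each array, so scaling an array by any constant leaves them as they are.

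**Figure D2:**
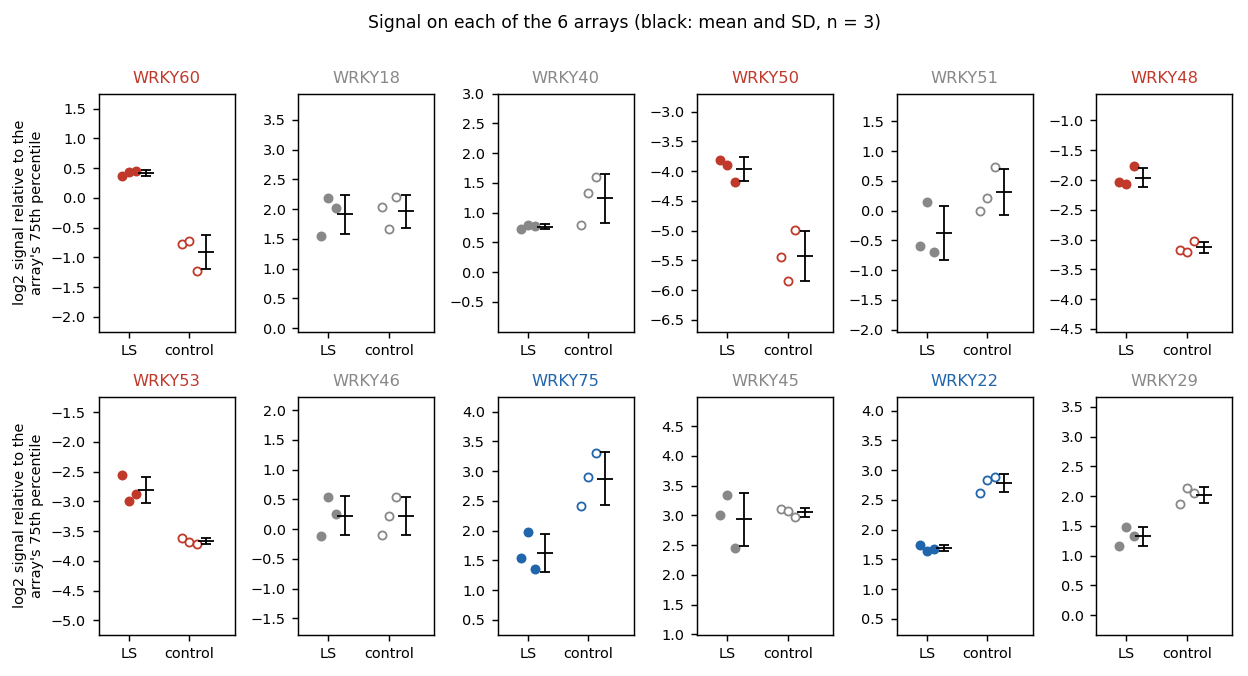
Log2 signal relative to the array's 75th percentile on each of the 3 LS arrays (filled) and the 3 control arrays (open) for the 6 called WRKY genes and 6 of their relatives, with the mean and SD in black. Red and blue mark genes called higher and lower in LS, and every panel spans the same number of log2 units, so that the gap of 1.32 in WRKY60 can be set beside the -0.05 of WRKY18.

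Group IIc, with 11 of the 51 tested genes, held 2 of the 4 genes called higher and 1 of the 2 called lower. Over all genes 3.18% were called higher and 2.19% lower, and the share of the group was not tested. WRKY50 and WRKY51 are close relatives that act in the repression of jasmonate responses by salicylic acid. WRKY50 (AT5G26170) had -3.81, -3.90 and -4.19 on the LS arrays, against -5.45, -5.84 and -4.99 on the control arrays. Every LS value was above every control value, and the log2 fold change was 1.46 ± 0.24 (SE, limma adjusted p = 0.0275). Its second probe gave the same change of 1.46 (limma adjusted p = 0.0170). Both probes were well above background on all 6 arrays but dim in control. The lowest spots well above background lay at -7.38 to -7.12 on the control arrays. WRKY51 (AT5G64810) ran -0.59, 0.14 and -0.69 in LS and -0.01, 0.22 and 0.74 in control, with overlapping groups and a log2 fold change of -0.70 ± 0.29 (SE, limma adjusted p = 0.178). The log2 fold changes of WRKY50 and WRKY51 differed by 2.16 ± 0.30 (SE, two-sided exact permutation p = 0.1, n = 3 each, adjusted p = 0.167). The gap was smaller after normexp correction of the median signal with an offset of 50. The log2 fold changes were then 0.54 for WRKY50 and -0.58 for WRKY51, and the part of the offset was not tested.

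WRKY48, WRKY28 and WRKY8 are related group IIc genes whose proteins are substrates of calcium-dependent protein kinases in immune signalling. WRKY48 (AT5G49520), a stress-inducible activator that lowers basal resistance to bacteria, had -2.04, -2.07 and -1.77 in LS and -3.17, -3.21 and -3.02 in control. The gap between the groups was wider than the range within either, and the log2 fold change was 1.17 ± 0.16 (SE, limma adjusted p = 0.0220). WRKY28 (AT4G18170), an activator of the salicylic acid synthesis gene ICS1, gave -2.63, -3.12 and -2.52 in LS and -3.99, -3.69 and -3.48 in control. All LS values of WRKY28 lay above the control values, but the log2 fold change of 0.96 ± 0.22 (SE) stayed just short of the threshold (limma adjusted p = 0.0525), and a second probe gave 0.93. WRKY8 (AT5G46350), which acts in salt tolerance and antiviral defence, gave -1.61, -1.46 and -2.06 in LS and -2.40, -2.58 and -2.57 in control. Its groups did not overlap either, with a log2 fold change of 0.80 ± 0.20 (SE, limma adjusted p = 0.0589). With adjusted p-values WRKY28 passed the threshold without LS array 2 and under spike-in scaling, and WRKY8 passed it without LS array 3, under the main and the spike-in scaling, and in the fit on the mean of all tested probes of a gene.

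WRKY75 and WRKY45 are group IIc genes linked to phosphate supply and leaf ageing, and WRKY75 also restrains root hair formation. WRKY75 (AT5G13080) had 1.54, 1.98 and 1.36 on the LS arrays, against 2.41, 2.91 and 3.31 on the control arrays. No LS value reached the lowest control value, and the log2 fold change was -1.25 ± 0.27 (SE, limma adjusted p = 0.0458). The second probe changed by -1.31 and did not pass (limma adjusted p = 0.0727). WRKY45 (AT3G01970), an activator of the phosphate transporter gene PHT1;1, gave 3.01, 3.34 and 2.46 in LS and 3.11, 3.08 and 2.97 in control. The LS values of WRKY45 enclosed the control values, and its log2 fold change was -0.12 ± 0.24 (SE, limma adjusted p = 0.790). The fold changes of WRKY75 and WRKY45 differed by -1.13 ± 0.32 (SE) on the log2 scale (two-sided exact permutation p = 0.1, n = 3 each, adjusted p = 0.167).

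Of the 3 root hair markers 1 was called higher, beside 3.18% of all genes. The summed linear signal of these markers (EXP7, COBL9 and RHS2), in multiples of the 75th percentile, was 2.09 to 2.17 in LS and 0.325 to 1.11 in control. RHS2 was called higher, with a log2 fold change of 1.07 (limma adjusted p = 0.0393), and EXP7 and COBL9 gave 1.73 and 1.64 without passing the test (limma adjusted p = 0.0654 and 0.0894). Control array 3 had the lowest values of EXP7 and COBL9 and also the highest value of WRKY75, and the part of root hair cells in the WRKY75 difference was not tested. WRKY44 (AT2G37260), also known as TTG2 and active in trichomes and in the hairless files of the root epidermis, had -2.70, -2.45 and -2.34 in LS and -2.23, -2.02 and -1.89 in control. Its LS values were all lower than its control values, but the log2 fold change of -0.45 ± 0.17 (SE) did not pass the test (limma adjusted p = 0.162). GL2, a root hair repressor that TTG2 acts on, had a log2 fold change of -0.69 (limma adjusted p = 0.0574). The phloem markers SUC2, APL and SEOR1 summed to 1.99 to 2.55 in LS and 2.87 to 3.17 in control with none of the 3 called, and of the endodermis markers CASP4 was called higher (log2 fold change 0.87, limma adjusted p = 0.0464) while CASP1 and CASP2 were not.

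The other group IIc genes among the 54 loci did not pass the test. WRKY23 (AT2G47260), an auxin-responsive gene of root development, gave -3.25, -3.42 and -2.92 in LS and -3.64, -3.63 and -3.83 in control, with separate groups and a log2 fold change of 0.50 ± 0.18 (SE, limma adjusted p = 0.141). WRKY12 and WRKY13, which act on secondary walls of the stem and on flowering time, were near the background. WRKY12 (AT2G44745) was well above background on 1 of the 3 LS arrays and on all 3 control arrays, and its log2 fold change was -0.22 ± 0.30 (SE, limma adjusted p = 0.681). WRKY13 (AT4G39410) had a log2 fold change of 0.36 ± 0.26 (SE, limma adjusted p = 0.412), and WRKY57 had 0.42. Over the 11 tested group IIc genes among the 54 loci the median log2 fold change was 0.42, positive under each of the 4 scalings. Of the 11, 7 were positive. The tested group IIc loci outside the 54 were all negative in the main setting, with WRKY49 at -0.81, WRKY56 at -0.41, WRKY59 at -0.25, WRKY68 at -1.35 and WRKY71 at -0.07. The medians of the other groups lay between -0.35 and -0.05, each of them positive under spike-in scaling, and that of group IIa also under quantile normalization.

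WRKY22 and WRKY29 of group IIe act at the end of the MAPK cascade that the bacterial peptide flagellin sets off. In this cascade MKK4 and MKK5 act upstream of MPK3 and MPK6. WRKY22 (AT4G01250) had 1.75, 1.65 and 1.67 on the LS arrays, against 2.61, 2.84 and 2.89 on the control arrays. The groups were apart by more than the range within either, and the log2 fold change was -1.09 ± 0.15 (SE, limma adjusted p = 0.0229). WRKY29 (AT4G23550) gave 1.16, 1.48 and 1.33 in LS and 1.87, 2.13 and 2.05 in control. All LS values of WRKY29 were below the control values, and its log2 fold change of -0.69 ± 0.16 (SE) narrowly missed the threshold (limma adjusted p = 0.0552). With adjusted p-values WRKY29 passed it after normexp correction and in the fit on the mean of all tested probes of a gene. The difference between the fold changes of the pair was -0.40 ± 0.13 (SE) on the log2 scale, with no overlap between the arrays (two-sided exact permutation p = 0.1, n = 3 each, adjusted p = 0.167). Of the remaining group IIe genes among the 54 loci, WRKY35 (AT2G34830) had -1.93, -1.51 and -1.90 in LS and -2.31, -2.13 and -2.77 in control. Its log2 fold change was 0.62 ± 0.22 (SE, limma adjusted p = 0.135), while WRKY14 and WRKY27 lay at 0.60 and -0.25 without passing.

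The kinases upstream of these factors and their known partner proteins were 19 genes, all tested, with a median log2 fold change of 0.03. Of the 19, 0 were called higher and 1 lower, beside 3.18% and 2.19% of all genes. The gene called lower was MKK9, a MAPK kinase of ethylene and camalexin responses, at 2.94, 3.07 and 2.71 in LS and 3.53, 3.71 and 3.81 in control. Its log2 fold change was -0.78 ± 0.17 (SE, limma adjusted p = 0.0462). A second MKK9 probe gave -0.64 and did not pass (limma adjusted p = 0.0534). MKK4 and MKK5 had log2 fold changes of 0.88 and 0.85 (limma adjusted p = 0.0827 and 0.0850), and their LS arrays all lay above their control arrays. MPK3 and MPK6, the last kinases of that cascade, had 0.42 and 0.01 (limma adjusted p = 0.148 and 0.981).

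Group III contains regulators of leaf senescence and of salicylic acid responses. WRKY53 (AT4G23810), a promoter of leaf senescence, had -2.56, -2.99 and -2.88 on the LS arrays, against -3.62, -3.68 and -3.72 on the control arrays. The groups did not overlap, the controls lay close together, and the log2 fold change was 0.86 ± 0.17 (SE, limma adjusted p = 0.0371). Its second probe changed by 1.14 with a wider spread and did not pass (limma adjusted p = 0.0983). WRKY46 (AT2G46400), which shares roles in basal resistance with WRKY53, gave -0.11, 0.54 and 0.26 in LS and -0.09, 0.22 and 0.54 in control. Its groups covered nearly the same range, with a log2 fold change of 0.01 ± 0.24 (SE, limma adjusted p = 0.988). WRKY30 (AT5G24110), a gene induced by oxidative stress, gave -0.75, -0.65 and -0.57 in LS and -0.70, -0.47 and -0.22 in control, a log2 fold change of -0.19 ± 0.18 (SE, limma adjusted p = 0.527).

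The log2 fold change of WRKY53 exceeded that of WRKY30 by 1.06 ± 0.24 (SE, two-sided exact permutation p = 0.1, n = 3 each, adjusted p = 0.167). Against WRKY46 the excess was 0.86 ± 0.38 (SE), with overlapping arrays (two-sided exact permutation p = 0.2, n = 3 each, adjusted p = 0.222). WRKY70 (AT3G56400) and WRKY54 (AT2G40750), which jointly hold back senescence and tune salicylic acid signalling, both had overlapping groups. WRKY70 gave 0.93, 1.47 and 1.16 in LS and 1.18, 1.29 and 1.83 in control. WRKY54 gave -1.34, -0.95 and -1.31 in LS and -1.21, -1.05 and -0.67 in control. Both genes were highest on control array 3, and their log2 fold changes of -0.25 ± 0.23 and -0.22 ± 0.20 (SE) differed by -0.02 ± 0.08 (SE, two-sided exact permutation p = 0.8, n = 3 each, adjusted p = 0.8). WRKY38 (AT5G22570), a repressor of basal defence, had -0.54, -0.10 and -0.30 in LS and 0.25, 0.44 and 0.83 in control. Its groups were separate, with a log2 fold change of -0.82 ± 0.21 (SE, limma adjusted p = 0.0641), and a second probe gave -0.78. The remaining tested group III genes among the 54 loci, WRKY41 and WRKY55, did not pass the test, with log2 fold changes of 0.52 and -0.06.

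Group I proteins carry a pair of WRKY domains, and none of the 11 tested genes of this group was called. WRKY33 (AT2G38470), a MAPK substrate required for resistance to necrotrophic fungi and for camalexin synthesis, gave 1.47, 0.51 and 1.65 in LS and 1.54, 2.10 and 2.96 in control. LS array 3 exceeded control array 1, so that the groups overlapped, and the log2 fold change of -0.99 ± 0.42 (SE) had the widest interval of the 51 genes, from -1.97 to -0.01 (limma adjusted p = 0.190). WRKY25 (AT2G30250), a close relative that acts in heat and bacterial responses, gave 2.01, 2.04 and 1.95 in LS and 1.94, 2.07 and 2.61 in control, a log2 fold change of -0.21 ± 0.20 (SE, limma adjusted p = 0.559). The difference between WRKY33 and WRKY25 was -0.78 ± 0.43 (SE, two-sided exact permutation p = 0.2, n = 3 each, adjusted p = 0.222). WRKY26, a relative of both in heat responses, gave -0.74, -0.40 and -0.14 in LS and -0.06, 0.24 and 0.34 in control, with LS below control throughout and a log2 fold change of -0.60 ± 0.21 (SE, limma adjusted p = 0.131). Besides WRKY44, the other tested group I genes among the 54 loci were WRKY1, WRKY2, WRKY3, WRKY4, WRKY10, WRKY20 and WRKY32, whose LS and control values all overlapped. Over the 11 tested genes the log2 fold changes ran from -0.99 to 0.23 with a median of -0.21.

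Group IId proteins bind calmodulin, and WRKY11, WRKY15 and WRKY17 are among them. WRKY11 (AT4G31550), a repressor of basal resistance, had 3.65, 3.82 and 2.96 in LS and 4.24, 4.06 and 4.06 in control. The LS values were all lower, by the most on LS array 3, and the log2 fold change was -0.65 ± 0.24 (SE, limma adjusted p = 0.148). WRKY15 (AT2G23320), which acts in growth under osmotic and oxidative stress, had 3.34, 3.52 and 3.13 in LS and 3.72, 3.88 and 3.83 in control. Its groups were separate and its log2 fold change was -0.48 ± 0.17 (SE, limma adjusted p = 0.125), while its other probes gave -0.58 and -0.60 with the same separation. WRKY17 (AT2G24570), the closest relative of WRKY11, gave 1.59, 1.29 and 1.30 in LS and 1.63, 1.60 and 1.29 in control, a log2 fold change of -0.11 ± 0.18 (SE, limma adjusted p = 0.724). WRKY11 and WRKY17 differed by -0.53 ± 0.26 (SE, two-sided exact permutation p = 0.2, n = 3 each, adjusted p = 0.222). WRKY21 had 1.95, 1.75 and 2.25 in LS and 1.55, 1.47 and 1.25 in control. Its LS values were all higher, unlike those of the other group IId genes with separate groups, and its log2 fold change was 0.56 ± 0.19 (SE, limma adjusted p = 0.118). WRKY7 and WRKY39 complete the group IId genes among the 54 loci at -0.01 and -0.23, and none of the 6 was called.

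In group IIb none of the 6 tested genes among the 54 loci was called. WRKY6 (AT1G62300), a senescence and defence regulator that represses the phosphate exporter gene PHO1, gave 1.12, 1.22 and 1.33 in LS and 0.97, 1.05 and 0.84 in control. The LS values were all higher, and the log2 fold change was 0.27 ± 0.15 (SE, limma adjusted p = 0.311). A second WRKY6 probe gave 0.56 (limma adjusted p = 0.0791). WRKY36 (AT1G69810) gave -1.84, -1.47 and -1.39 in LS and -1.97, -2.26 and -2.40 in control, with separate groups and a log2 fold change of 0.64 ± 0.20 (SE, limma adjusted p = 0.0975). WRKY31 (AT4G22070) had -3.06, -1.76 and -1.41 in LS and -1.24, -1.19 and -1.49 in control. Its log2 fold change of -0.77 ± 0.40 (SE, limma adjusted p = 0.273) came mostly from LS array 1, which was lower than every other array by more than 1 log2 unit. WRKY9, WRKY47 and WRKY61 had changes between -0.33 and 0.05. WRKY16, a fusion of a WRKY domain to a resistance protein, changed by -0.35 ± 0.16 (SE, limma adjusted p = 0.225).

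The loci that could not be tested were WRKY34, WRKY42 and WRKY43, whose probes were not well above background on every array of either group. WRKY34 is a pollen gene, and its probe was not well above background on any of the 6 arrays. WRKY42 (AT4G04450), the partner of WRKY6 in repressing PHO1, had -6.92, -7.10 and -6.71 in LS and -6.60, -6.59 and -7.72 in control.

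**Figure D3:**
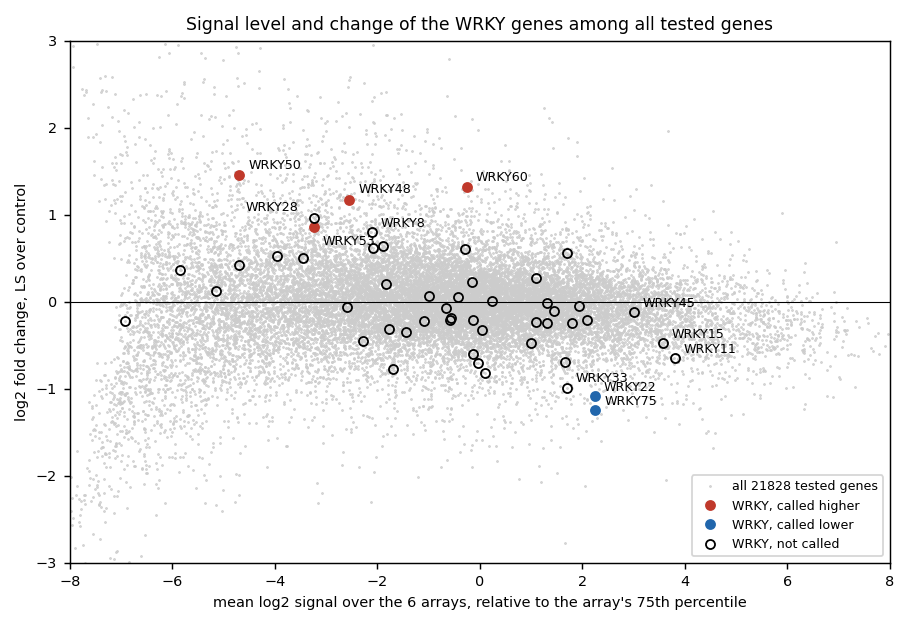
Log2 fold change of LS over control against the mean log2 signal over the 6 arrays for all 21828 tested genes (grey) and the 51 WRKY genes (circles), with 34 genes beyond the vertical range left out. The 2 WRKY genes called lower lie right of 0, and the 4 called higher lie left of it.

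The members were also split by the signal level of their probe, a split chosen after the values were seen and not tested. Of the 20 members whose mean over the 6 arrays was above the 75th percentile, 17 had a negative log2 fold change, with a median of -0.25. Of the 31 dimmer members 13 were negative, and their median was 0.12. Over all genes the same split gave 59.0% negative among 8374 bright genes (median -0.07) and 49.3% among 13454 dim genes (median 0.01). Under spike-in scaling most members of both parts were positive, with 6 of the 20 and 3 of the 31 negative. Both genes called lower were among the brighter members and all 4 called higher among the dimmer ones, whereas 1.41% of all bright genes were called lower, under the 2.19% of all genes, and 4.42% of all dim genes were called higher. Normexp correction with an offset of 50 gave log2 fold changes of 1.28 for WRKY60, 0.78 for WRKY48, 0.53 for WRKY53 and 0.54 for WRKY50. Of these, WRKY60 and WRKY48 were called.

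Several probes of 1 gene could be compared. Of the 19 genes with several tested probes, 14 had changes of the same sign on all of them, and the gap between the lowest and the highest log2 fold change was 0.17 at the median and 0.37 at most. The call differed between probes of WRKY53 and WRKY75 and of no other gene. The 5 genes with opposite signs were WRKY3, WRKY17, WRKY18, WRKY39 and WRKY46, none of which was called.

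Outside the 54 loci the array held 18 further WRKY loci, of which 15 were tested. The median log2 fold change of the 15 was -0.18, with 0 called higher and 2 lower, beside 3.18% and 2.19% of all genes. WRKY63 (AT1G66600) of group III, known for abscisic acid and drought responses, had -1.43, -1.16 and -1.78 in LS and -0.38, 0.08 and 0.40 in control. Its log2 fold change was -1.49 ± 0.25 (SE, limma adjusted p = 0.0289). WRKY68 (AT3G62340) of group IIc had -7.16, -7.34 and -7.09 in LS and -5.38, -5.94 and -6.22 in control. Its log2 fold change was -1.35 ± 0.23 (SE, limma adjusted p = 0.0299). This probe was well above background on 1 of the 3 LS arrays, so the size of the change rests partly on signals near the background. It entered the test only through the control group, where it was higher, so the filter itself favoured a call in this direction. Another WRKY68 probe could not be tested, with means of -8.72 in LS and -8.66 in control. In both genes the LS values of the tested probe were all below the control values, which for WRKY68 adds no support because of that filter.

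Genes that earlier work links to WRKY factors as targets numbered 24, of which 18 were tested, with a median log2 fold change of 0.21. Of the 18, 2 were called higher and 0 lower, beside 3.18% and 2.19% of all genes. JAZ5, a repressor of jasmonate signalling, had -4.14, -4.41 and -4.07 in LS and -5.71, -6.38 and -5.29 in control, a log2 fold change of 1.59 ± 0.28 (SE, limma adjusted p = 0.0304). EDS1, a hub of immune signalling upstream of salicylic acid, had -1.36, -1.34 and -1.35 in LS and -2.14, -2.32 and -2.36 in control, a log2 fold change of 0.92 ± 0.15 (SE, limma adjusted p = 0.0263). For both genes the groups were separate, and JAZ5 was dim in control but well above background on all 6 arrays. A second tested EDS1 probe gave 1.17 and did not pass (limma adjusted p = 0.156). The camalexin gene PAD3, a target of WRKY33, had 0.08, the salicylic acid synthesis gene ICS1 0.19, PHT1;1 -0.07 and PHO1 0.50 as log2 fold change, and none of these passed. Second probes gave -0.24 for ICS1 and 0.61 for PHO1, and neither passed. CYP71A13, another camalexin gene, had 1.20 on its brightest probe (limma adjusted p = 0.133) and 1.09 on a second, dimmer one that was called (limma adjusted p = 0.0446). These probes were well above background on 2 and on 1 of the 3 control arrays, so the sizes of both changes rest partly on signals near the background. Both entered the test only through the LS group, where they were higher, so the filter itself favoured a call in this direction. The pathogenesis-related genes PR1, PR2 and PR5, with SAG12, NST2 and CYP82C2, could not be tested because they were not well above background on every array of either group.

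**Figure D4:**
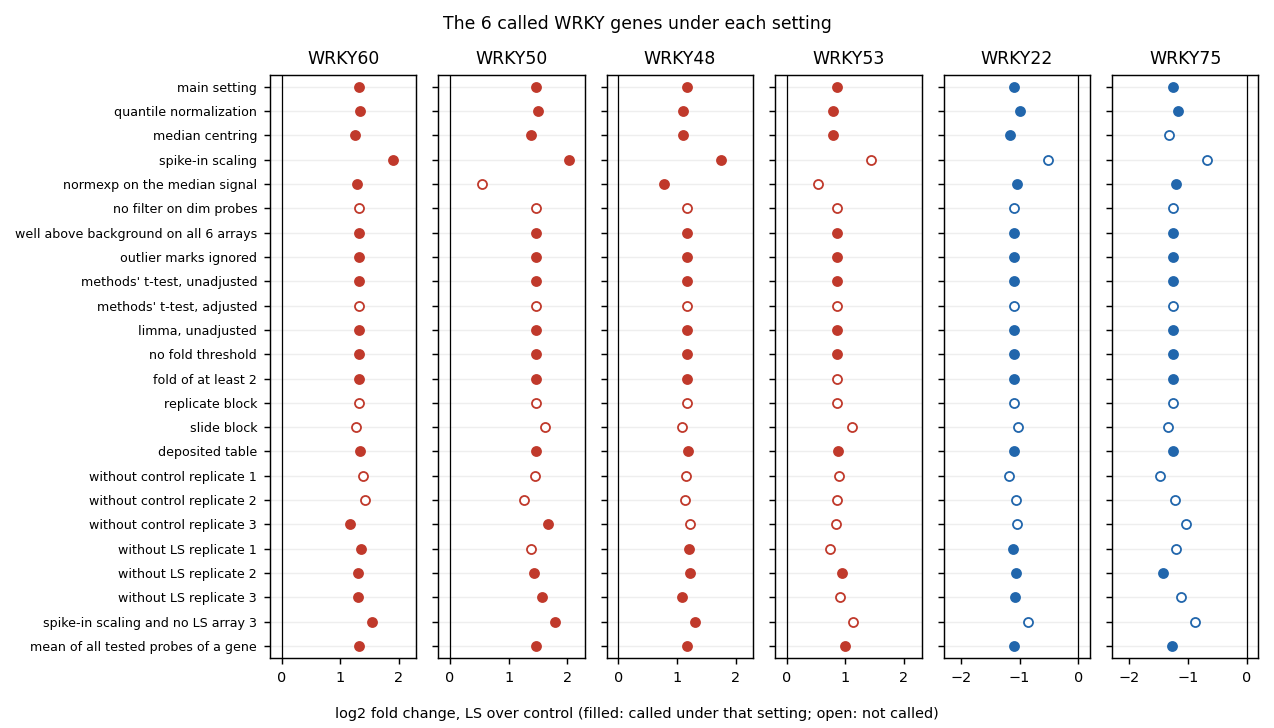
Log2 fold change of LS over control for each of the 6 called WRKY genes (panels) under the main setting and 23 alternatives (rows), filled where the gene was called and open where it was not. All points keep the sign of the main value, which another test, threshold or filter on dim probes could not change, and no gene is called under every alternative.

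The 6 calls kept their direction under all 23 alternatives, but each of them was lost under some. The other tests, thresholds and filters on dim probes and the replicate block reuse the main log2 fold change of these genes. Their direction was fixed in advance, so only the other scalings, the background correction, the slide block and the arrays left out could change it materially. WRKY60 was called under 17 of the 23, WRKY48 under 16, WRKY50 under 15, WRKY22 under 14, WRKY75 under 11 and WRKY53 under 10. These counts include unadjusted limma and the setting with no fold threshold, which loosen the main rule and had to keep every main call. They also include the deposited table, which scales the same intensities to the same percentile. Without control array 1, or without control array 2, no WRKY gene was called, and the probes called over the whole array dropped to 168 higher and 85 lower, or 48 higher and 20 lower, against 840 and 793 with all arrays. Without control array 3 the calls were WRKY60 and WRKY50, without LS array 1 they were WRKY60, WRKY48 and WRKY22, and without LS array 3 WRKY53 and WRKY75 were lost while WRKY8 was gained. Within the slide that held both groups, which leaves LS array 1 against the 3 controls and equals the fit with slide as a block, the log2 fold changes were 1.62 for WRKY50, 1.27 for WRKY60, 1.09 for WRKY48, 1.11 for WRKY53, -1.34 for WRKY75 and -1.03 for WRKY22, with limma adjusted p from 0.11 to 0.209. The study's own rule, the methods' t-test with no adjustment and the same fold, called 7 members higher and 4 lower, against 5.57% and 4.52% of all genes, and unadjusted limma called 8 and 8, against 8.82% and 9.03%. Over all alternatives the adjusted p, from limma or the methods' t-test, ran from 0.00275 to 0.242 for WRKY60, from 0.0125 to 0.21 for WRKY48, from 0.000198 to 0.245 for WRKY50, from 0.0357 to 0.256 for WRKY53, from 0.0332 to 0.427 for WRKY75 and from 0.00888 to 0.526 for WRKY22. The range of log2 fold changes of WRKY60 was 1.16 to 1.90, the narrowest in proportion among the 6.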

How the data were processed

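The authors labelled total RNA of 6 samples with Cy3, hybridised each to a 1-colour Agilent array and used Agilent Feature Extraction 10.7.3.1 to write the deposited intensity of each spot, corrected for local background. A second table deposited by the authors gives 38614 spots per array as a ratio to the array's 75th percentile. Deposited outlier and background flags are 0 or 1. From the deposited intensities, log2 values minus the 75th percentile of each array were computed here, without 1417 control spots and with outlier spots set missing. A probe had to be well above background on all 3 arrays of the LS or the control group, and the 32371 probes that met this entered the fit with limma 3.58.1 in R 4.3.3 (lmFit, eBayes, Benjamini-Hochberg adjustment over all probes), after a check on simulated data. The alternatives were other scalings, background corrections, filters, thresholds, tests, blocks and arrays left out. Normexp correction used the median signal and an offset of 50. Spike-in scaling without LS array 3 was chosen after seeing the data. Pairs of relatives were compared with exact permutation tests (scipy 1.17.1). Named genes were all called members, the 4 largest uncalled changes in each direction, 22 genes of known role and the 3 with the brightest control signal. Values of other members complete their groups and were added after they were seen. Members and lists were chosen with earlier results of these data known. Locus names of all 54 members were found in the TAIR10.1 reference, whose build is later than that of the array's design, and coordinates were left out for that reason.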

Additional observations from a re-analysis of the deposited data

How the results depend on the processing

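The WRKY genes called higher and lower were 4 and 2 in the main setting. They were 2 higher after normexp correction, 4 and 1 after median centring, 4 and 0 under spike-in scaling with or without LS array 3, and 0 and 0 with no filter on dim probes, where 43601 probes were tested and 135 and 107 were called. Averaging all tested probes of a gene, in a fit over loci in place of probes, gave 5 and 4. Of the genes gained, WRKY8 and WRKY29 have only 1 tested probe, so averaging left their values unchanged. The methods' t-test at the study's threshold gave 7 and 4 (1517 and 1633 probes), and after Benjamini-Hochberg adjustment 0 and 0 (1 and 0 probes). Unadjusted limma gave 8 and 8 (2531 and 3297 probes), and a fold of at least 2 left 559 probes higher. With slide as a block there were 0 and 0 (24 and 83 probes). Leaving out 1 array gave 0 to 5 WRKY genes higher and 0 to 2 lower, with 48 to 736 probes higher and 20 to 630 lower. The median log2 fold change of the WRKY genes was 0.46 under spike-in scaling, 0.10 with LS array 3 also left out and -0.27 with slide as a block, and it lay between -0.18 and -0.07 with 1 array left out. Spike-in scaling made 90.7% of called probes higher (1113 higher, 114 lower), against 51.4% in the main setting, and 468 were lower without LS array 3. The cause of these differences was not tested.

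Deviations of arrays with the same replicate number in the title correlated at 0.03, -0.12 and -0.19, against -0.13 to 0.20 for the other pairs. With 3 arrays per group, spread unevenly over the slides, these values cannot show whether the samples were paired. With the replicate block there were 0 and 0 WRKY genes called (197 and 167 probes).

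Some uncalled genes turned their sign. Under spike-in scaling the log2 fold change became 0.52 for WRKY18, 0.09 for WRKY40, 0.37 for WRKY25, 0.32 for WRKY70, 0.35 for WRKY54, 0.38 for WRKY30, 0.46 for WRKY45, 0.46 for WRKY17, 0.35 for WRKY12, 0.12 for WRKY44 and 0.09 for WRKY15. With LS array 3 also left out it was 0.13 for WRKY18, 0.05 for WRKY25, 0.06 for WRKY54, 0.35 for WRKY45, 0.16 for WRKY17 and 0.33 for WRKY12. Quantile normalization gave 0.03 for WRKY18, 0.01 for WRKY45 and 0.10 for WRKY12, median centring -0.06 for WRKY46, and normexp 0.09 for WRKY18 and -0.02 for WRKY13. The slide block gave -0.34 for WRKY46, 0.08 for WRKY17 and 0.36 for WRKY12, and the mean of all probes 0.13 for WRKY18 and -0.03 for WRKY46. With 1 array left out the values ran from -0.20 to 0.13 for WRKY18, from -0.15 to 0.18 for WRKY46, from -0.32 to 0.12 for WRKY45 and from -0.51 to 0.10 for WRKY12. Over the genes named by the rule and all alternatives, 600 results kept their direction and side of the threshold, 55 no longer passed, 22 passed newly and 35 turned. At 3 arrays per group the median 95% interval reached 0.48 to either side of a log2 fold change, and uncalled changes reached 0.96 for WRKY28 and -0.99 for WRKY33.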

Other observations

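The genes of WRKY54 and WRKY55 are neighbours on the chromosome in the TAIR10.1 annotation, and they were not called, with log2 fold changes of -0.22 and -0.06. WRKY63 lies in a stretch with WRKY64 and WRKY67, whose probes could not be tested. The WRKY64 probe was well above background on 2 control arrays and on 0 LS arrays.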
